A study of Mus musculus with 188 samples.

Results

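The genes of the interleukin 6 family described here are 5 ligands (Il6, Il11, Lif, Osm and Clcf1) and 3 receptor chains (Il6st, Osmr and Lifr), measured in organotypic brain-slice cultures exposed to hemoglobin (Hb), heme or their scavenger complexes. They were taken by gene symbol, 8 of the 25655 gene identifiers listed for batch 1 and of the 25528 listed for batches 2 and 3. All 8 passed the filter on low counts in both sets, among 15554 and 16473 genes tested. The family was chosen by its differences between treated and control slices of these same libraries, which were already known. Their log2 fold changes and adjusted p-values are therefore a description of size against the spread between libraries, and independent support for nothing.

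The slices were coronal sections from adult wild-type C57BL/6J mice of 6 to 8 weeks, male and female and were kept as pairs on membrane inserts. They were treated on day 7 and harvested for bulk mRNA after 24 h or 48 h. In batch 1 there were 6 groups of 10 libraries at 24 h, namely control, heme bound to albumin (heme-albumin) at 12.5, 50, 200 or 400 µM, and heme bound to hemopexin (hemeHpx) at 200 µM. In batches 2 and 3 there were 12 groups, namely control, free Hb at 200 or 400 µM, Hb bound to haptoglobin (HbHp) at 200 or 400 µM, and haptoglobin alone (Hp) at 400 µM, each at 24 h and 48 h, with 4 to 12 libraries a group. All slices carried the same wild-type genotype, and the Hb, heme, Hp and Hpx were of human origin. The culture has no blood flow, and cells that enter from blood in the living brain cannot arrive. The libraries labelled hemeHpx carry haptoglobin in their titles and hemopexin in their treatment label and library name, and were taken by the latter. A further 21 of the 188 libraries carried labels that left their group open and entered no comparison. The labels do not say whether libraries of a group came from separate animals, so p-values measure the spread between these libraries, which may in part be technical. Some libraries of the same group share the code in their library name, such as control replicates 6 and 7 of batch 1. Such libraries were counted apart, and whether they share an animal is not given.

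Interleukin 6 family cytokines signal through the shared chain gp130, encoded by Il6st. Il6 and Il11 each engage gp130 together with a private receptor chain, whereas Lif, Osm and Clcf1 act through gp130 paired with Lifr or, for mouse Osm, with Osmr. The activated receptors engage Janus kinases and the transcription factor Stat3, and Socs3 is a target that feeds back on the pathway. In brain, Lif and the ciliary neurotrophic factor receptor ligands, of which Clcf1 is one, are known for the support of neurons and glia and for astrocyte activation, and Osm is known as a product of myeloid cells.

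Promoter sequence is shown for the 3 ligands whose level rose with heme-albumin and whose start is in the RefSeq table of GRCm38.p6, because they moved together in that exposure. The table held 6 of the 8 members and not Osm or Clcf1. Each line gives the 250 bases before an annotated start, 5′ to 3′ on the gene's strand, with capitals marking each match to TGANTCA, the motif of AP-1 factors such as Fos and Jun. The windows are chr7:4778142-4778391 on the minus strand for Il11, chr11:4257318-4257567 on the plus strand for Lif and chr5:30012864-30013113 on the plus strand for Il6.
Il11: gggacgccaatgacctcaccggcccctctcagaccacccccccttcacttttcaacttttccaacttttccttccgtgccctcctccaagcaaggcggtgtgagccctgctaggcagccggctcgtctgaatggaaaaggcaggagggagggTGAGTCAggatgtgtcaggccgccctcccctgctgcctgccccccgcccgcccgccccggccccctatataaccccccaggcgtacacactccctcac
Lif: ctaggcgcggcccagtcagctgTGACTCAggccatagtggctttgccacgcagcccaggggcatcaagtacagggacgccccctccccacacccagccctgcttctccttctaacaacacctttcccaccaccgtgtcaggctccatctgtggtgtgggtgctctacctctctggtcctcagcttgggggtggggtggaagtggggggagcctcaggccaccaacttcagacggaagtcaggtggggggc
Il6: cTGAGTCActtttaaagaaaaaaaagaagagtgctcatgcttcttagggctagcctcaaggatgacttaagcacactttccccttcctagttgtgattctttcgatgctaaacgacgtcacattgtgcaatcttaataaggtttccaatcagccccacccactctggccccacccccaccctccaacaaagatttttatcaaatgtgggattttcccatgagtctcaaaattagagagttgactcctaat
Each of these windows held 1 match on either strand, with its first base 98 bases before the start in Il11, 228 in Lif and 249 in Il6. A match occurred in 6.75% of all 32851 promoter windows of this length. The table holds a second annotated start of Il11, whose window at chr7:4782858-4783107 held no match. No window of Il6st, Osmr or Lifr held one. The STAT motif TTCNNNGAA was found in none of the members' windows and in 7.02% of all windows. GGG and CC with any 5 bases between them, a loose NF-kB motif, matched in 45.8% of all windows and TGACNNNGC, the antioxidant response element, in 10.2%. Of the 8 windows of members, 6 held the NF-kB motif, those of Lif and Il6 among them, and 2 the antioxidant response element, in Lif and Lifr. These matches describe letters and not bound sites.

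Total counts ran from 11038484 to 44199060 in batch 1 and from 15587938 to 54174784 in batches 2 and 3. Levels are given as CPM, a gene's counts scaled to a common library total by the trimmed mean of M-values, with the lowest, median and highest library of a group. Every test is the quasi-likelihood F test of edgeR, with p adjusted over all genes by Benjamini-Hochberg. A gene passes at an adjusted p under 0.05, and fold changes carry their standard error (SE). Markers of neurons, astrocytes, oligodendrocytes, microglia, border macrophages, endothelial cells and fibroblasts were all detected, whereas 1 of 6 markers of neutrophils and T cells passed the filter. In batches 2 and 3 the library names carry a prefix, E1 or E2, whose meaning is not given. All HbHp libraries were E2 and batch 3, and batch 3 held a single E1 and a single E2 control at each time. 68.0% of genes differed between the prefixes, so fold changes in batches 2 and 3 were adjusted for batch and prefix. For members, values from E2 libraries alone stand beside several of them.

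In control slices at 24 h the receptor chains Il6st and Osmr were more abundant than any of the 5 ligands, and Lifr was near Clcf1. Per kilobase of exon, in batch 1 and in batches 2 and 3 respectively, mean levels were 28.4 and 25.2 CPM per kilobase for Il6st, 11.9 and 7.41 for Osmr and 5.81 and 4.46 for Lifr. Among ligands Clcf1 stood highest, at 5.84 and 4.63 CPM per kilobase, followed by Lif at 2.34 and 2.38. Il11 was at 1.18 and 2.06, Osm at 0.876 and 1.13 and Il6 at 0.700 and 1.05 CPM per kilobase. Il6 was thus the lowest of the 8 in batch 1 and, with a mean close to that of Osm, in batches 2 and 3. Raw Il6 counts ranged from 11 to 199 a library in batch 1 and from 16 to 387 in batches 2 and 3. Those of Osm ranged from 3 to 211 and from 29 to 292, so these are the ligands for which counting error is largest relative to the level.

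With heme-albumin the ligands Il11, Lif and Clcf1 rose at 200 and 400 µM and Il6 at 400 µM, the receptor chains Il6st and Lifr fell, and Osm and Osmr did not pass the test at any dose. The count of members past the test was 0 of 8 at 12.5 µM, 1 at 50 µM, 4 at 200 µM and 6 at 400 µM, against 0.0450%, 0.463%, 13.6% and 29% of all genes tested. At 12.5 µM Il6st and Osmr had an unadjusted p under 0.05, and DESeq2 called 0 members. The median log2 fold change over the 8 members was 0.04 at 200 µM and 0.66 at 400 µM, against -0.01 over all genes at either dose. The dose comparisons share their 10 control libraries.

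Il11, a cytokine that acts on stromal cells and glia through gp130, had the largest rise of the 8 members with heme-albumin. Control slices held 1.66 to 3.62 CPM (median 2.30). The level was 2.69 to 4.41 CPM (median 3.58) at 12.5 µM, 2.84 to 7.55 CPM (median 5.26) at 50 µM, 4.17 to 18.5 CPM (median 8.79) at 200 µM and 6.69 to 53.2 CPM (median 22.7) at 400 µM. At 12.5 and 50 µM the groups overlapped the controls, with 5 and 9 of 10 libraries above the highest control, while at 200 and 400 µM all 10 libraries of each group lay above it. The log2 fold change was 0.50 ± 0.25 (SE, adjusted p = 0.614) at 12.5 µM, 1.09 ± 0.25 (SE, adjusted p = 0.0167) at 50 µM, 2.04 ± 0.25 (SE, adjusted p = 1.88e-08) at 200 µM and 3.33 ± 0.26 (SE, adjusted p = 6.75e-16) at 400 µM. The step from 200 to 400 µM was 1.29 ± 0.23 (SE, adjusted p = 5.55e-04), when 1.27% of all genes passed the test. Within the 400 µM group the libraries were spread widely, from 6.69 to 53.2 CPM, and the ranges of neighbouring doses overlapped at every step, although their means were ordered.

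**Figure D1:**
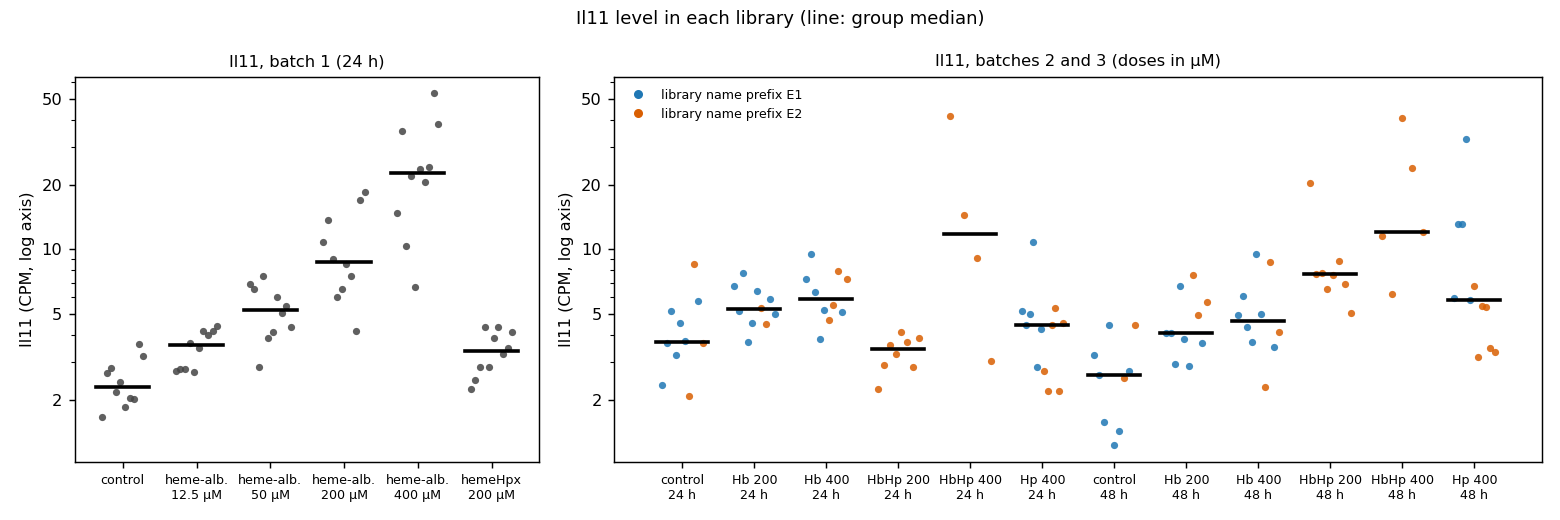
Il11 level of each library in CPM on a log axis, by treatment group, with batch 1 on the left and batches 2 and 3 on the right. Points are libraries, coloured by prefix in batches 2 and 3, and lines are group medians. In batch 1 the median climbs from 2.30 CPM in controls to 22.7 CPM at 400 µM heme-albumin, and hemeHpx stays near control. In batches 2 and 3 the highest medians, 11.8 and 12.1 CPM, are those of HbHp at 400 µM.

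Lif, a cytokine induced in injured nerve tissue, changed at the upper doses. Controls held 6.04 to 14.5 CPM (median 9.86). Levels were 8.09 to 15.3 CPM (median 11.8) at 12.5 µM and 9.07 to 17.9 CPM (median 12.3) at 50 µM, where 1 of 10 libraries in each exceeded the highest control. At 200 µM the range was 10.97 to 31.7 CPM (median 13.9) and 4 of 10 libraries exceeded it. At 400 µM it was 17.3 to 72.3 CPM (median 34.4), above every control. This gave a log2 fold change of 0.78 ± 0.20 (SE, adjusted p = 0.00416) at 200 µM and 1.98 ± 0.20 (SE, adjusted p = 9.43e-12) at 400 µM, and the step between these doses was 1.20 ± 0.19 (SE, adjusted p = 2.11e-04). At 12.5 and 50 µM it was 0.15 (adjusted p = 0.805) and 0.29 (adjusted p = 0.574).

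Clcf1, a ligand of the ciliary neurotrophic factor receptor, had a wide spread in controls, 7.12 to 42.8 CPM (median 23.6). It was 23.1 to 60.7 CPM (median 38.7) at 200 µM, with 4 of 10 libraries above the highest control, and 49.1 to 95.9 CPM (median 66.3) at 400 µM, above every control. On the log2 scale its change was 0.90 ± 0.25 (SE, adjusted p = 0.00938) at 200 µM and 1.62 ± 0.25 (SE, adjusted p = 7.87e-07) at 400 µM. At 12.5 and 50 µM the values were 0.34 (adjusted p = 0.649) and 0.45 (adjusted p = 0.476), and the step from 200 to 400 µM, 0.72 (adjusted p = 0.149), did not pass the test.

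Il6, the founding cytokine of the family, passed the test at 400 µM and not below. Controls held 0.851 to 3.03 CPM (median 1.77) and the 400 µM group 1.07 to 7.11 CPM (median 3.64), with 6 of 10 libraries above the highest control and the rest within the control range. Il6 changed by 1.10 ± 0.31 (SE, adjusted p = 0.00510) on the log2 scale at 400 µM, against 0.18 (adjusted p = 0.772) at 200 µM. Osm held 0.237 to 3.38 CPM (median 1.96) in controls, 0.626 to 2.98 CPM (median 1.40) at 200 µM and 1.01 to 3.40 CPM (median 2.49) at 400 µM. All 4 heme-albumin groups overlapped the controls for Osm, with log2 fold changes from -0.28 to 0.22.

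**Figure D2:**
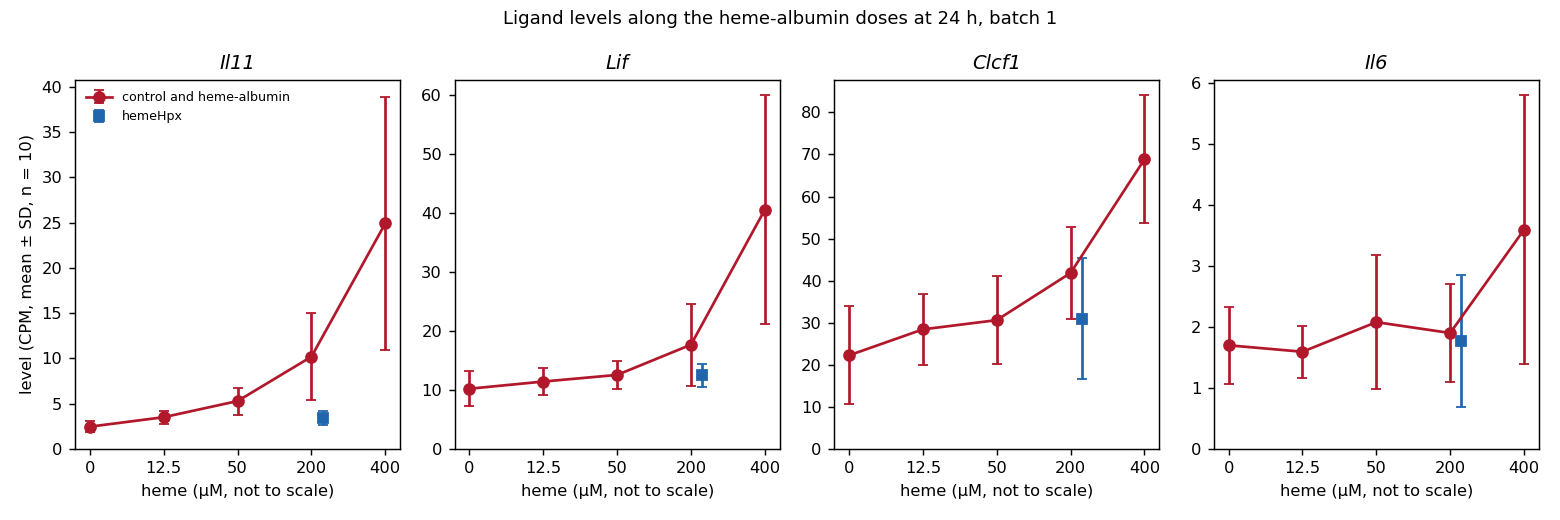
Mean level of Il11, Lif, Clcf1 and Il6 in CPM against heme dose in µM at 24 h in batch 1, on linear axes from 0 with evenly spaced doses that are not to scale. Circles are control and heme-albumin groups, the square is hemeHpx at 200 µM, bars are 1 SD and n = 10 a group. Il11 goes from 2.45 to 24.9 CPM, Lif from 10.2 to 40.5 CPM and Clcf1 from 22.2 to 68.8 CPM between control and 400 µM, and the spread of Il11, Lif and Il6 widens at 400 µM.

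Of the receptor chains, Il6st and Lifr fell by small amounts. Il6st held 289.9 to 352 CPM (median 314) in controls, 254 to 305 CPM (median 277) at 200 µM and 217 to 310.4 CPM (median 259.5) at 400 µM, where 8 and 7 of 10 libraries lay below the lowest control. Its log2 fold change was -0.18 ± 0.05 (SE, adjusted p = 0.0129) at 200 µM and -0.25 ± 0.05 (SE, adjusted p = 1.18e-04) at 400 µM. Lifr, the chain used by Lif and Clcf1, went from 47.9 to 88.3 CPM (median 62.97) in controls to 38.1 to 52.003 CPM (median 46.5) at 400 µM, a log2 fold change of -0.44 ± 0.10 (SE, adjusted p = 4.12e-04), and was at -0.25 (adjusted p = 0.0869) at 200 µM. Osmr held 109 to 178 CPM (median 139.7) in controls and 113 to 160.3 CPM (median 136) at 400 µM, and its log2 fold change at 400 µM was -0.09 (adjusted p = 0.438). In bulk slices, fewer cells of a type and less RNA per cell cannot be told apart. Astrocyte markers went lower as Il6st and Lifr did, 3 of 8 at 200 µM and 5 of 8 at 400 µM. Of all genes, 6.60% and 14.3% were called lower at these doses. The summed astrocyte markers held 4125 to 5437 CPM in controls and 2928 to 4584 CPM at 400 µM, with no marker at 0. Summed microglia markers went lower as well, from a median of 890 CPM in controls to 615 CPM at 200 µM and 670 CPM at 400 µM. The part of either cell type in the fall of Il6st and Lifr was not tested.

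The remaining values of batch 1 lay close to the controls. Il6 held 0.745 to 2.35 CPM (median 1.65) at 12.5 µM, 1.12 to 5.11 CPM (median 1.79) at 50 µM, 0.952 to 3.45 CPM (median 1.77) at 200 µM and 0.625 to 3.75 CPM (median 1.59) with hemeHpx. Osm held 1.28 to 4.48 CPM (median 1.80) at 12.5 µM and 0.887 to 3.67 CPM (median 2.25) at 50 µM, and Clcf1 15.6 to 37.9 CPM (median 29.4) and 14.1 to 46.2 CPM (median 31.8). These groups overlapped the controls. Il6st held 263 to 333 CPM (median 291) at 12.5 µM, 253 to 330.2 CPM (median 297) at 50 µM and 273 to 322 CPM (median 295) with hemeHpx. Lifr held 44.5 to 81.95 CPM (median 54.5), 46.9 to 75.3 CPM (median 58.01) and 49.2 to 73.9 CPM (median 61.96), and Osmr 109 to 159 CPM (median 124), 113 to 159 CPM (median 129) and 109 to 155 CPM (median 120.5), in the same order. At 200 µM heme-albumin Lifr held 43.4 to 59.6 CPM (median 53.9) and Osmr 116 to 162 CPM (median 133).

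At 200 µM the form in which heme was delivered separated Il11 and Lif, which were lower with hemeHpx than with heme-albumin, and Osm, which was higher. With hemeHpx, in which heme is held by its high-affinity carrier, 0 of 8 members passed the test against control, when 8.20% of all genes did. Osmr, -0.22 (adjusted p = 0.0624), was the 1 member with an unadjusted p under 0.05 and passed with DESeq2 at -0.23 (adjusted p = 0.0457). Osmr was also called lower with a block by library code, when 3706 of 15554 genes passed, against 1276 without the block. Il11 held 2.25 to 4.37 CPM (median 3.38), with 4 of 10 libraries above the highest control, a log2 fold change of 0.46 ± 0.25 (SE, adjusted p = 0.200) and a 95% interval of -0.04 to 0.95. Lif held 9.15 to 16.7 CPM (median 12.4), a log2 fold change of 0.28 (adjusted p = 0.318), and Clcf1 12.9 to 48.7 CPM (median 27.7), a log2 fold change of 0.47 (adjusted p = 0.180).

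Set directly against heme-albumin at 200 µM, hemeHpx slices differed in 3 of 8 members, when 25.9% of all genes passed the test. Il11 was lower, at a log2 difference of -1.58 ± 0.24 (SE, adjusted p = 2.76e-06), and just the lowest of the 10 heme-albumin libraries lay within the hemeHpx range. Lif was lower as well, at -0.50 ± 0.19 (SE, adjusted p = 0.0470), with overlapping ranges. Osm was higher, at 0.75 ± 0.28 (SE, adjusted p = 0.0387), at 1.47 to 4.88 CPM (median 2.70) against 0.626 to 2.98 CPM (median 1.40). Clcf1, at -0.43 (adjusted p = 0.171) with an interval of -0.91 to 0.04, did not pass the test, and neither did Il6 or the receptor chains. Without the filter on low counts the calls for Lif and Osm were lost, at -0.52 (adjusted p = 0.0576) and 0.73 (adjusted p = 0.0552).

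At 200 µM microglia markers moved with Osm. Against control, 7 of 8 were lower with heme-albumin at 200 µM, and 7 of 8 were higher with hemeHpx than with heme-albumin. Their summed level was 485 to 1981 CPM in controls, 348 to 878 CPM with heme-albumin and 594 to 1586 CPM with hemeHpx at 200 µM, and none was at 0. Border macrophage markers went the same way, with 4 of 6 higher with hemeHpx than with heme-albumin. At 400 µM heme-albumin the summed microglia markers had a median of 670 CPM against 890 CPM in controls, whereas Osm had a median of 2.49 CPM against 1.96 CPM. The part of microglia and border macrophages in the Osm difference at 200 µM was not tested.

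Free Hb did not move any member past the test at 200 or 400 µM, at 24 h or 48 h, and DESeq2 also called 0 members in each. At an unadjusted p under 0.05 there was 1 member for 200 µM at 24 h (Osm), 1 for 400 µM at 24 h (Clcf1), 1 for 200 µM at 48 h (Il11) and 2 for 400 µM at 48 h (Il11 and Osm). All genes past the test were 0.0971% and 0.522% at 24 h and 0.310% and 0.601% at 48 h, for 200 and 400 µM. Il11 held 2.09 to 8.59 CPM (median 3.72) in 24 h controls, 3.72 to 7.81 CPM (median 5.26) with 200 µM and 3.85 to 9.55 CPM (median 5.91) with 400 µM. At 48 h it held 1.23 to 4.48 CPM (median 2.61) in controls, 2.87 to 7.64 CPM (median 4.09) with 200 µM and 2.30 to 9.48 CPM (median 4.67) with 400 µM. The Hb groups overlapped the controls at both times, with 4 and 5 of 10 libraries above the highest control at 48 h. The 48 h log2 fold changes of Il11 were 0.83 ± 0.33 (SE, adjusted p = 0.715) and 0.98 ± 0.33 (SE, adjusted p = 0.235), with 95% intervals of 0.19 to 1.47 and 0.34 to 1.63. Over the other 7 members and all 4 comparisons log2 fold changes ran from -0.22 to 0.47. With E2 libraries alone, Clcf1 passed the test for 400 µM at 48 h, at 1.39 (adjusted p = 0.0447), on 3 treated and 2 control libraries.

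The other ligands with free Hb overlapped the range of the controls. Il6 held 1.39 to 3.70 CPM (median 2.15) with 200 µM and 1.08 to 3.80 CPM (median 2.59) with 400 µM at 24 h, and 0.548 to 1.44 CPM (median 0.906) and 0.601 to 1.98 CPM (median 1.07) at 48 h. Lif held 7.004 to 13.9 CPM (median 9.61) and 6.21 to 14.4 CPM (median 8.24) at 24 h against 4.81 to 15.3 CPM (median 9.71) in controls, and 5.06 to 18.3 CPM (median 9.28) and 5.27 to 15.97 CPM (median 10.1) at 48 h. Clcf1 held 11.6 to 33.3 CPM (median 18.8) and 11.9 to 34.5 CPM (median 19.1) at 24 h against 9.62 to 31.9 CPM (median 16.5) in controls, and 10.1 to 40.7 CPM (median 23.6) and 8.50 to 40.5 CPM (median 21.8) at 48 h against 5.94 to 47.8 CPM (median 23.4). All these groups overlapped their controls. Osm held 1.17 to 4.84 CPM (median 3.14) and 1.39 to 5.22 CPM (median 3.40) at 24 h against 1.64 to 4.73 CPM (median 2.26), and 2.202 to 5.73 CPM (median 3.58) and 2.73 to 6.30 CPM (median 3.69) at 48 h against 1.19 to 5.10 CPM (median 2.42), again with overlap.

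With HbHp at 200 µM Il11 was higher than in control at 48 h, and no member passed the test at 24 h. At 24 h, when 1.93% of all genes passed the test, Il11 held 2.24 to 4.13 CPM (median 3.44), inside the control range, at a log2 fold change of -0.29 (adjusted p = 0.854). There Il6 and Clcf1 had an unadjusted p under 0.05 and DESeq2 called 0 members. At 48 h, when 11.9% of all genes passed, it held 5.07 to 20.4 CPM (median 7.67) and all 8 libraries lay above the highest of the 9 controls. The log2 fold change was 1.82 ± 0.40 (SE, adjusted p = 7.69e-04). For Hp alone at 400 µM, like HbHp all batch 3, it was 1.69 (adjusted p = 0.00160) at 48 h. Of the 9 controls at that time 2 were from batch 3. HbHp 200 µM replicate 1 stood at 20.4 CPM with the next at 8.85 CPM, and without it the log2 fold change was 1.52 (adjusted p = 0.00858). With E2 libraries alone, where 2 controls held 2.54 and 4.48 CPM, it was 1.35 (adjusted p = 0.230) and did not pass, whereas Clcf1 did, at 1.22 (adjusted p = 0.0175) against 0.33 (adjusted p = 0.440) in the fit of both prefixes. The change from 24 h to 48 h in the effect of HbHp on Il11 was 2.11 ± 0.48 (SE, adjusted p = 0.0862), which did not pass the test, although DESeq2 put it at 2.10 (adjusted p = 0.0183) and a fit with a block by library code at 2.17 (adjusted p = 0.0278).

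Il6 also lay above the controls in each of the 8 HbHp libraries at 48 h, at 1.36 to 3.03 CPM (median 1.73) against 0.477 to 1.16 CPM (median 0.745). Its log2 fold change, 0.84 ± 0.33 (SE, adjusted p = 0.0859), did not pass the test with terms for batch and prefix. It passed with the batch term alone, at 1.06 (adjusted p = 0.0112), with neither term, at 1.29 (adjusted p = 4.10e-04), and with a block by library code, at 1.13 (adjusted p = 0.0134). With E2 libraries alone it was 1.32 (adjusted p = 0.158) and did not pass. Nor did it pass with DESeq2, the other scaling, either other filter or each time fitted alone. Lif was 4.20 to 8.49 CPM (median 7.28) against 3.69 to 21.5 CPM (median 13.4) in controls of both prefixes. The E2 controls among them held 3.69 and 4.02 CPM and the E1 controls 7.61 to 21.5 CPM (median 13.9). The log2 fold change of Lif was -0.15 (adjusted p = 0.752) with prefix as a term, -0.88 (adjusted p = 0.0207) without it and 0.96 (adjusted p = 0.0826) with E2 libraries alone, and its direction changed with how prefix was handled.

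With HbHp at 400 µM Il11 was higher than in control at both times. At 24 h the 4 libraries held 3.04, 9.11, 14.5 and 41.8 CPM, of which 3 lay above the highest control. The log2 fold change was 2.07 ± 0.44 (SE, adjusted p = 9.24e-04), and 1.13 (adjusted p = 0.227) without the library at 41.8 CPM. At 48 h the 5 libraries held 6.20, 11.6, 12.1, 24.01 and 40.9 CPM, and all lay above the highest control. At 48 h the log2 fold change was 2.92 ± 0.43 (SE, adjusted p = 2.65e-07), and between 2.41 and 3.18 when a single HbHp or E2 control library was left out. With E2 libraries alone it was 1.84 (adjusted p = 0.135) at 24 h and 2.45 (adjusted p = 0.0315) at 48 h.

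Beside Il11, 1 further member passed the test at each time, so that 2 of 8 did, against 5.15% of all genes at 24 h and 11.9% at 48 h. At 24 h it was Clcf1, with 17.9, 18.3, 31.02 and 32.7 CPM against 9.62, 14.2 and 14.4 CPM in the 3 E2 controls. The log2 fold change of Clcf1 was 1.25 ± 0.28 (SE, adjusted p = 0.00185), but 0.88 (adjusted p = 0.119) with E2 libraries alone and 0.54 (adjusted p = 0.427) with no prefix term. At 48 h it was Il6, with 1.18, 1.49, 2.25, 2.41 and 7.66 CPM, all above the highest control, and a log2 fold change of 1.49 ± 0.36 (SE, adjusted p = 0.00209). Without the library at 7.66 CPM the value was 0.79 (adjusted p = 0.141). With E2 libraries alone Lif and Clcf1 passed as well at 48 h, at 1.43 (adjusted p = 0.00984) and 1.60 (adjusted p = 0.00163), against 0.32 (adjusted p = 0.479) and 0.71 (adjusted p = 0.0769) with both prefixes. Osm at 24 h held 4.81, 4.81, 5.72 and 6.84 CPM, above every control of both prefixes, but its log2 fold change adjusted for batch and prefix was 0.60 (adjusted p = 0.223). At 24 h Lif, 0.66 (adjusted p = 0.139), and Osmr, 0.30 (adjusted p = 0.1004), passed when control replicate 8 was left out, at 0.85 (adjusted p = 0.0270) and 0.36 (adjusted p = 0.0253).

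**Figure D3:**
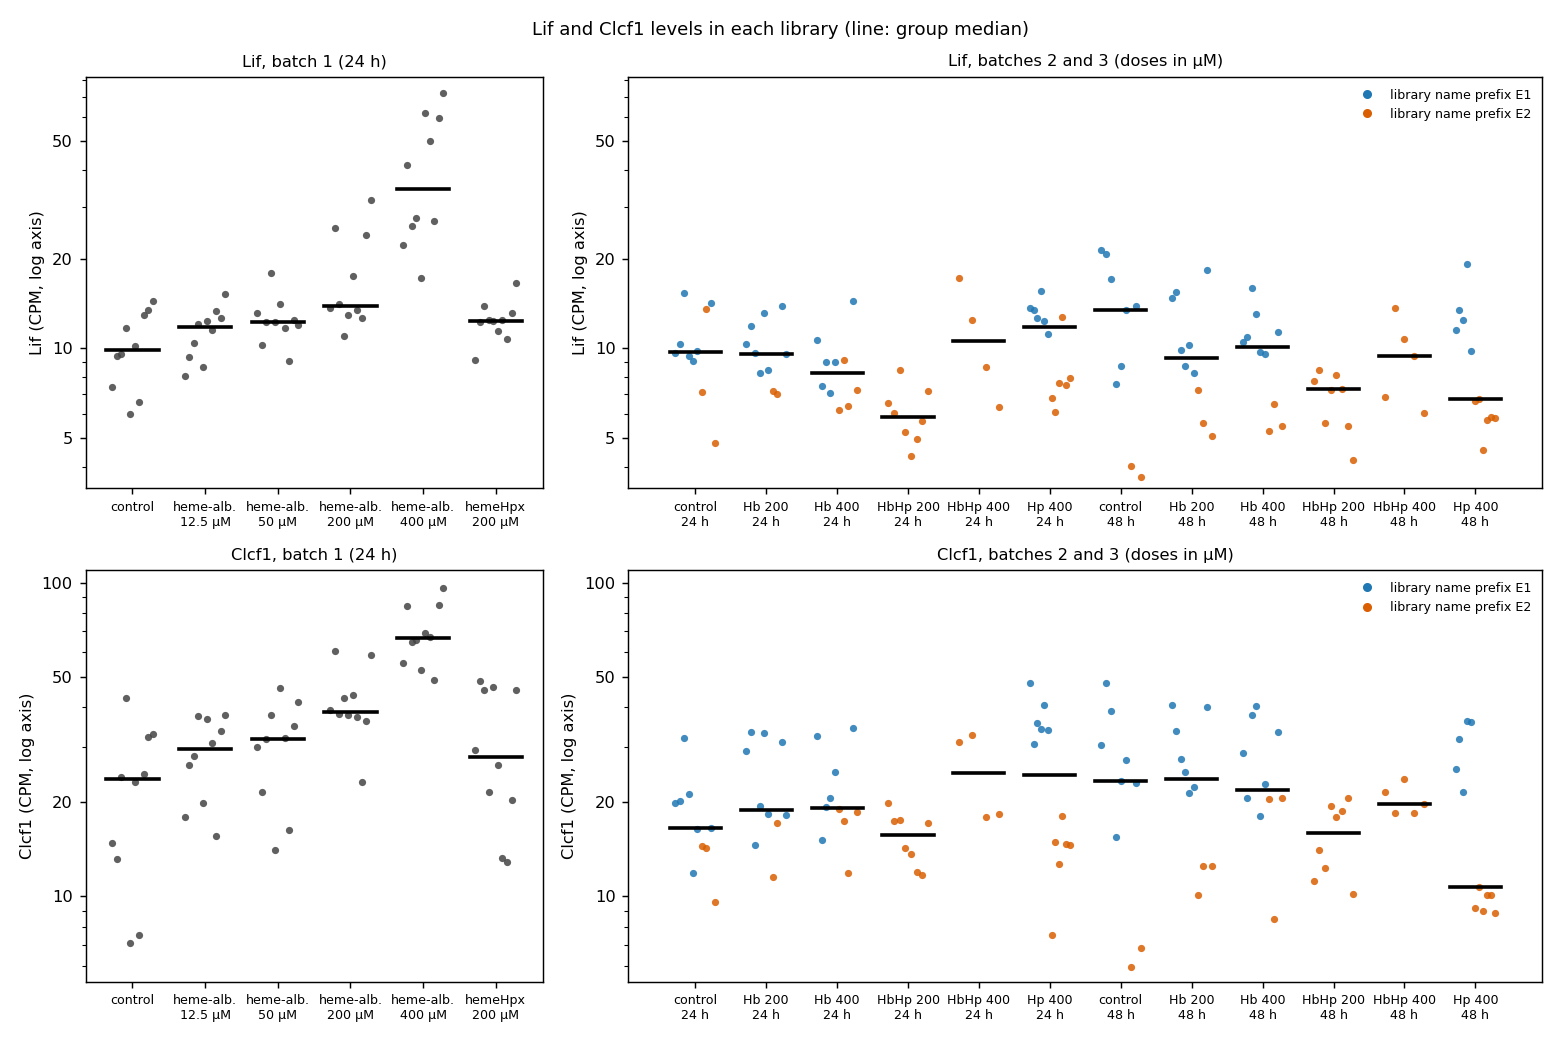
Lif (top) and Clcf1 (bottom) level of each library in CPM on a log axis, by treatment group, with batch 1 on the left and batches 2 and 3 on the right. Points are libraries, coloured by prefix in batches 2 and 3, and lines are group medians. In batch 1 both genes climb with heme-albumin, whereas in batches 2 and 3 the E2 libraries tend to lie lower, by log2 differences of -0.84 for Lif and -1.15 for Clcf1 over all groups.

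The level of Osm, whose product in mouse acts through Osmr, was above most controls in the all-E2 HbHp groups without passing the test in any of them. At 200 µM it held 3.74 to 5.66 CPM (median 4.71) at 24 h and 4.08 to 6.80 CPM (median 5.46) at 48 h. At 400 µM and 48 h it held 4.43, 5.66, 6.87, 8.65 and 8.86 CPM. The E2 controls stood higher than the E1 controls too, at 2.13 to 4.73 CPM (median 3.46) against 1.64 to 3.04 CPM (median 2.04) at 24 h and 4.99 to 5.10 CPM (median 5.04) against 1.19 to 4.39 CPM (median 2.22) at 48 h. The log2 fold changes adjusted for batch and prefix were 0.33 (adjusted p = 0.622) and 0.29 (adjusted p = 0.472) at 200 µM, and 0.63 (adjusted p = 0.107) at 400 µM and 48 h. With E2 libraries alone, Osm did not pass at 24 h, at 0.37 (adjusted p = 0.662) for 200 µM and 0.64 (adjusted p = 0.211) for 400 µM. At 48 h these values were 0.05 (adjusted p = 0.938) and 0.38 (adjusted p = 0.487), which did not pass either. With no batch or prefix term all 4 HbHp comparisons passed for Osm, at 0.85 (adjusted p = 0.0225) and 1.12 (adjusted p = 0.00761) at 24 h and 0.83 (adjusted p = 0.00814) and 1.16 (adjusted p = 0.00124) at 48 h for 200 and 400 µM. At 400 µM and 48 h it also passed with the batch term alone, at 1.03 (adjusted p = 0.0116), and with a block by library code, at 0.75 (adjusted p = 0.0246).

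The remaining ligand values with HbHp were these. Lif held 4.33 to 8.46 CPM (median 5.88) with 200 µM at 24 h, 6.33, 8.65, 12.46 and 17.3 CPM with 400 µM at 24 h and 6.08, 6.85, 9.40, 10.7 and 13.7 CPM with 400 µM at 48 h. Clcf1 held 11.7 to 19.9 CPM (median 15.7) and 10.2 to 20.6 CPM (median 15.98) with 200 µM, and 18.4, 18.4, 19.6, 21.6 and 23.7 CPM with 400 µM at 48 h. These lay inside the range of all controls of the same time, with the exception of Lif at 24 h, which reached below it at 200 µM and above it at 400 µM. Il6 at 24 h held 1.37 to 2.44 CPM (median 2.06) with 200 µM and 1.57, 1.87, 3.005 and 3.08 CPM with 400 µM, inside the control range.

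With haptoglobin and no Hb, Il11 was higher than in control at 48 h and not at 24 h. At 24 h 0 of 8 members passed the test, when 0.704% of all genes did, and Il11 held 2.198 to 10.8 CPM (median 4.47). Clcf1 alone had an unadjusted p under 0.05 then, and DESeq2 called 0 members. At 48 h Il11 was the single member past the test, when 10.8% of all genes passed, with 3.155 to 32.7 CPM (median 5.84) over 11 libraries and a log2 fold change of 1.69 ± 0.37 (SE, adjusted p = 0.00160). The prefixes differed in this group. The 5 E1 libraries held 5.84, 5.94, 13.1, 13.2 and 32.7 CPM, all above the 7 E1 controls at 1.23 to 4.47 CPM (median 2.61), of which 1 was from batch 3 like the Hp libraries, whereas the 6 E2 libraries held 3.155 to 6.79 CPM (median 4.44) against 2.54 and 4.48 CPM in the 2 E2 controls. With E2 libraries alone the log2 fold change was 0.41 (adjusted p = 0.936), and with the 48 h libraries fitted alone it was 1.65 (adjusted p = 0.0522). With 1 control of each prefix in batch 3 at each time, no comparison within that batch was made.

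For the other members the Hp libraries overlapped the controls. At 48 h Il6 held 0.578 to 2.77 CPM (median 1.28), at a log2 fold change of 0.57 (adjusted p = 0.220), and Osm 2.57 to 8.87 CPM (median 5.59), at 0.55 (adjusted p = 0.0889). Lif held 4.56 to 19.2 CPM (median 6.77), at -0.18 (adjusted p = 0.626), and Clcf1 8.84 to 36.2 CPM (median 10.7), at -0.11 (adjusted p = 0.805). At 24 h Lif held 6.12 to 15.6 CPM (median 11.8), Clcf1 7.53 to 47.98 CPM (median 24.3), Il6 1.07 to 5.79 CPM (median 2.21) and Osm 1.54 to 5.46 CPM (median 3.34). The 4 ligands thus had wide ranges in this group, which holds libraries of both prefixes.

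The receptor chains did not pass the test against control in any group of batches 2 and 3. Over the 10 comparisons with control, log2 fold changes ran from -0.14 to 0.01 for Il6st, from -0.01 to 0.30 for Osmr and from -0.10 to 0.08 for Lifr. Il6st held 249.8 to 331 CPM (median 271) in 24 h controls and 243 to 328 CPM (median 304) in 48 h controls. Its lowest library was HbHp 200 µM replicate 1 at 48 h, 192 CPM, which was also the library highest in Il11 of its group. Osmr held 77.4 to 120.3 CPM (median 83.8) and 69.9 to 103 CPM (median 91.0) in controls, and its highest median was that of HbHp 400 µM at 24 h, from libraries at 98.6, 101, 108 and 128 CPM. Lifr held 41.04 to 54.2 CPM (median 49.6) and 37.2 to 59.4 CPM (median 46.1) in controls, and the medians of the other 10 groups lay between 44.04 and 47.8 CPM.

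Matched doses allowed HbHp to be set against its parts. Against free Hb at 200 µM, 0 of 8 members passed at 24 h or 48 h, when 0.607% and 4.98% of all genes did. DESeq2 called 0 members at either time, and at an unadjusted p under 0.05 there were 0 members at 24 h and 1 at 48 h (Il11). Il11 was 0.99 ± 0.39 (SE, adjusted p = 0.116) at 48 h in that comparison, with a 95% interval of 0.24 to 1.75. Against free Hb at 400 µM Il11 was higher with HbHp, by 1.504 ± 0.44 (SE, adjusted p = 0.0426) at 24 h and 1.94 ± 0.42 (SE, adjusted p = 0.00253) at 48 h, as the single member of 8, when 2.21% and 4.28% of all genes passed. These calls were lost with E2 libraries alone, at 1.44 (adjusted p = 0.208) and 1.90 (adjusted p = 0.0841), and when each time was fitted alone, at 1.499 (adjusted p = 0.0550) and 1.93 (adjusted p = 0.0530). The 24 h call was lost in 4 of its 9 alternatives, among them the fit without the filter on low counts, at 1.49999 (adjusted p = 0.0527), and that with a block by library code, at 1.42 (adjusted p = 0.0615). The block in turn brought Il11 past the test against Hb at 200 µM and 48 h, at 1.24 (adjusted p = 0.0195), and against Hp at 48 h, at 1.27 (adjusted p = 0.0495). Against Hp alone at 400 µM, 1 of 8 members passed at each time, when 0.619% and 1.44% of all genes did. It was Il11 at 24 h, by 2.05 ± 0.38 (SE, adjusted p = 5.79e-04), and Clcf1 at 48 h, by 0.82 ± 0.23 (SE, adjusted p = 0.0494), a call that was lost in 6 of its 9 alternatives, including the fit with no prefix term at 0.10 (adjusted p = 0.950). The 48 h difference of Il11, 1.23 ± 0.37 (SE, adjusted p = 0.0651), did not pass, though it did with E2 libraries alone, at 2.04 (adjusted p = 0.00302). These comparisons share the HbHp libraries with those against control.

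**Figure D4:**
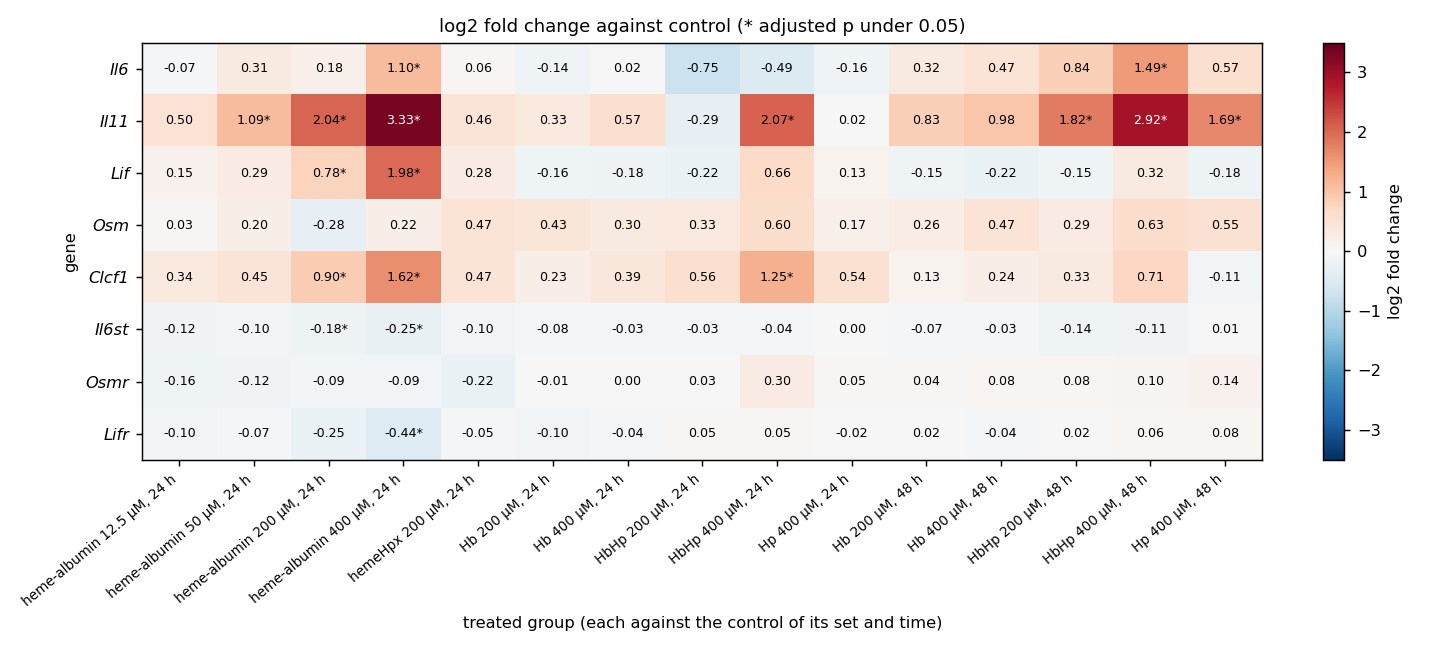
Log2 fold change of the 8 members (rows) in each treated group against the control of its set and time (columns), adjusted for batch and prefix in batches 2 and 3. The colour and the printed number give the value and an asterisk marks an adjusted p under 0.05. Il11 carries asterisks from 50 µM heme-albumin upwards and in 4 of the HbHp and Hp columns, and the 3 receptor chains at the bottom stay between -0.44 and 0.30.

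Untreated slices changed in Il6 over time. It fell from 0.973 to 7.66 CPM (median 2.11) at 24 h to 0.477 to 1.16 CPM (median 0.745) at 48 h, a log2 fold change of -1.64 ± 0.27 (SE, adjusted p = 7.57e-05) that was alone among the 8 members, when 4.50% of all genes passed the test. The ranges overlapped slightly. Il11 had -0.70 (adjusted p = 0.216) and the other members did not pass. No member passed the test of a difference in effect between 48 h and 24 h, when 0.00% and 0.00% of all genes did for Hb at 200 and 400 µM, 0.0121% and 0.0304% for HbHp and 0.00% for Hp at 400 µM. At an unadjusted p under 0.05 there were 0 members for Hb at either dose, 2 for HbHp at 200 µM (Il11 and Il6), 1 at 400 µM (Il6) and 3 for Hp (Il6, Il11 and Clcf1). DESeq2 called 0 for Hb and Hp, Il11 for HbHp at 200 µM and Il6 at 400 µM.

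The prefix shifted ligands in opposite directions, with 68.0% of all genes and 5 of 8 members past the test. The log2 difference of E2 from E1 was -1.15 ± 0.11 (SE, adjusted p = 1.10e-16) for Clcf1 and -0.84 ± 0.10 (SE, adjusted p = 2.57e-12) for Lif, whereas Osm was higher by 0.70 ± 0.10 (SE, adjusted p = 2.98e-09), Il6 by 0.31 ± 0.13 (SE, adjusted p = 0.0364) and Il6st by 0.11 ± 0.03 (SE, adjusted p = 7.19e-05). All 8 microglia markers were higher in E2, at a summed 311 to 2884 CPM in 53 E1 libraries and 823 to 3786 CPM in 54 E2 libraries, and none was at 0. Il11 at -0.22 (adjusted p = 0.240) did not pass. Between batches 3 and 2 no member passed the test or had an unadjusted p under 0.05, when 17.2% of all genes did.

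Other genes of the pathway were taken from lists of further ligands, receptors, signalling genes, Stat3 targets and inducers, 48 genes of which 44 were tested in both sets. With heme-albumin 6 of the 44 rose and 3 fell at 200 µM, when 6.98% of all genes rose and 6.60% fell. At 400 µM 14 rose and 5 fell, when 14.7% and 14.3% of all genes did. The largest rises at 200 µM were those of the chemokine Cxcl2, at 2.05 (adjusted p = 0.00158), the prostaglandin synthase Ptgs2, at 1.54 (adjusted p = 4.93e-05), and the chemokine Cxcl1, at 0.89 (adjusted p = 0.0147), all from the inducer list. The falls were those of the suppressor Socs2, at -0.57 (adjusted p = 0.0425), the astrocyte filament Gfap, at -0.34 (adjusted p = 0.0228), and the survival gene Mcl1, at -0.17 (adjusted p = 0.0454). Socs3, the feedback target of gp130 signalling, was at -0.13 (adjusted p = 0.598). Over the 18 Stat3 targets the median log2 fold change at 200 µM was 0.07, with 2 up and 2 down. At 400 µM it was 0.26, with 8 up and 2 down. Of the 6 inducers tested 4 rose at each of these doses.

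Further receptors of the family did not pass the test with heme-albumin. With heme-albumin at 200 or 400 µM 0 of 4 receptors (Cntfr, Il11ra1, Il27ra and Il6ra) passed the test. With hemeHpx against control 1 of 44 pathway genes passed, when 8.20% of all genes did. It was the survival gene Bcl2l1, at 0.30 (adjusted p = 0.0492). Against heme-albumin, hemeHpx had 5 higher and 4 lower, when 25.9% of all genes passed. Among the higher were Socs2 at 0.76 (adjusted p = 0.00446), the acute phase gene Serpina3n at 0.52 (adjusted p = 0.00447) and Gfap at 0.37 (adjusted p = 0.00819). Among the lower were Ptgs2 at -1.32 (adjusted p = 3.11e-04), Cxcl2 at -1.21 (adjusted p = 0.0338) and the growth gene Myc at -0.59 (adjusted p = 4.37e-05). Socs3 was at 0.16 (adjusted p = 0.436) with hemeHpx against control.

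With free Hb at 200 µM 0 of 44 pathway genes passed at either time, when 0.0971% and 0.310% of all genes did at 24 h and 48 h. With HbHp at 200 µM 0 passed at 24 h, when 1.93% of all genes did, and at 48 h 3 rose and 2 fell, when 11.9% passed. Ptgs2 rose, at 0.998 (adjusted p = 0.00806), as did the transcription factor Cebpb at 0.41 (adjusted p = 0.0171) and the adhesion receptor Cd44 at 0.23 (adjusted p = 0.0130). Socs3 fell, at -0.47 (adjusted p = 0.0113), and so did Cntfr, the receptor chain of ciliary neurotrophic factor that Clcf1 also uses, at -0.32 (adjusted p = 0.00423). Group means of Cebpb were close, 45.9 CPM with HbHp and 45.5 CPM in controls, so its rise rests on the adjustment for batch and prefix. Between the prefixes 33 of the 44 genes differed, when 68.0% of all genes did. Values of these genes from E2 libraries alone are not given. Against free Hb at 200 µM and 48 h Socs3 was lower with HbHp as well, at -0.46 (adjusted p = 0.0206), as was the NF-kB cofactor Bcl3, at -0.42 (adjusted p = 0.00842). With HbHp at 400 µM and 48 h 11 rose and 4 fell, when 11.9% of all genes passed in either direction.

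Likeness of pattern was measured as the smaller of 2 Pearson correlations of log2 CPM, over the 60 libraries of batch 1 and over the 53 E1 and 54 E2 libraries of batches 2 and 3 after removal of batch and prefix, among 13886 genes. The libraries share treatment groups, so a common response to dose makes genes alike. Il11 was most like Pgd, an enzyme of the pentose phosphate pathway, at 0.78, Esd at 0.77 and the peroxiredoxin Prdx1 at 0.75. Il6 was most like the chemokine Cxcl1 at 0.71, Kcne4 at 0.69 and the NF-kB inhibitor Nfkbia at 0.66. Lif was nearest to the phosphatase Dusp5 at 0.67, Arrdc4 at 0.65 and Tgif1 at 0.64, and Clcf1 to Stk40 at 0.80, Spred3 at 0.78 and Noct at 0.76. None of these 12 genes was shared between the 4 ligands, but with 3 of 13886 genes kept for each, this says little about their likeness. Il11 and Lif correlated at 0.89 in batch 1 and 0.34 in batches 2 and 3. Lif and Clcf1 were at 0.79 and 0.63, and Il11 and Clcf1 at 0.70 and 0.21. Il6 was at 0.61 and 0.29 with Il11, 0.59 and 0.28 with Lif and 0.16 and 0.12 with Clcf1.

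Osm was most like Hcls1 at 0.86, the tumour necrosis factor receptor Tnfrsf1b at 0.86 and the microglial adaptor Tyrobp at 0.85, which are genes of myeloid cells. Among the receptor chains, Il6st was nearest to Tacc1 at 0.76, the cholesterol transporter Abca1 at 0.75 and Igsf10 at 0.74. Osmr was nearest to the syndecan Sdc2 at 0.69, the growth hormone receptor Ghr at 0.69 and S100a11 at 0.66. Lifr was nearest to the lysosomal sulfatase Ids at 0.72, 1700025G04Rik at 0.68 and the potassium channel Kcnma1 at 0.68.

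Ordered by group mean over the 12 groups of batches 2 and 3, Il11 stood highest in HbHp 400 µM at 48 h, 19.0 ± 13.9 CPM (SD, n = 5), and lowest in control at 48 h, 2.70 ± 1.21 CPM (SD, n = 9). Il6 had the same groups at its ends, 2.9995 ± 2.66 CPM (SD, n = 5) and 0.784 ± 0.234 CPM (SD, n = 9). Osm ran from 6.89 ± 1.91 CPM (SD, n = 5) in HbHp 400 µM at 48 h to 2.57 ± 0.942 CPM (SD, n = 10) in control at 24 h. Lif and Clcf1 ended lowest in HbHp 200 µM, an all-E2 group, with Lif at 6.06 ± 1.32 CPM (SD, n = 8) and Clcf1 at 15.4 ± 2.98 CPM (SD, n = 8) at 24 h. For each of the 8 members, each group's range overlapped that of the next group in the order, in both sets. The share of all genes with such overlap was not computed, so this does not set the members apart from other genes.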

How the data were processed

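Bulk RNA-seq was performed by the study on mRNA from slice cultures, with a Lexogen SPLIT kit for extraction and an Illumina TruSeq mRNA library. The values analysed are raw counts per gene and library, which the authors made with featureCounts on GRCm39 and deposited without normalization, the counter's version and strand setting not being given in the sources used here. The study itself tested with DESeq2 and apeglm shrinkage. Gene identifiers were paired with symbols by an annotation of GRCm38, for 25600 of 25655 identifiers in batch 1 and 25424 of 25528 in batches 2 and 3. All 8 members matched.

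Counts of batch 1 and of batches 2 and 3 were fitted apart with edgeR 4.0.16 in R 4.3.3, after a filter by expression (at least 10 counts, total of at least 15) and scaling by the trimmed mean of M-values. The quasi-likelihood test was adjusted by Benjamini-Hochberg over all genes tested, with a threshold of 0.05, and terms for batch and prefix were used in batches 2 and 3. Intervals are log2 fold change ± the normal 95% quantile times the SE. Total counts were 11038484 to 44199060 in batch 1, 32626873 to 54174784 in batch 2 and 15587938 to 38839614 in batch 3. No pair of libraries of a group agreed within sampling noise, the smallest chi-square per degree of freedom being 3.48.

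Groups followed the treatment, dose, time and batch labels. Of the 21 libraries in no comparison, 20 were tagged HbHpx 400 µM while their titles named haptoglobin, and 1 control carried conflicting times. Because all members passed the filter, the exact permutation test planned for a filtered member was not needed. Members and lists were chosen with earlier results of these data known. The text names all 8 members, up to 3 pathway genes called in each direction in the comparisons at 200 µM by size of change, Socs3, and the 3 genes most alike each member.

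The fit was tested on simulated data, with 100 genes changed by a log2 size of 1 and 100 by 0.5. For heme-albumin at 200 µM 93% and 60% were called among 15554 genes, and for HbHp at 200 µM and 48 h 85% and 63% among 16473. Of all genes called, 3.77% and 5.13% were unchanged ones. The simulated counts held no shift by batch or prefix and no likeness by library code, so these rates need not hold for the real libraries. Alternatives were DESeq2 1.42.0, scaling by DESeq2 size factors, no and a stricter filter, other covariates, a block by library code, E2 libraries alone, each time alone and single libraries left out. Promoter letters came from RefSeq starts on GRCm38.p6.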

Additional observations from a re-analysis of the deposited data

Results flagged for a closer look

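In 9 of 128 pairs of a member and a group of 4 to 10 libraries, 1 library lay far from the others by Dixon's criterion, which chance alone does for about 5% of groups. Il6 gave 4 of them. Heme-albumin 50 µM replicate 4 held 5.11 CPM, control replicate 8 at 24 h held 7.66 CPM, Hb 200 µM replicate 10 at 24 h held 3.70 CPM, and HbHp 400 µM replicate 2 at 48 h held 7.66 CPM, each the highest of its group. The last of these libraries bears on the call of Il6 in HbHp 400 µM at 48 h, which was lost without it.

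HbHp 200 µM replicate 1 at 48 h stood apart for a pair of members. It was the highest of its group in Il11, at 20.4 CPM with the next library at 8.85 CPM, and the lowest in Il6st, at 192 CPM with the next at 278 CPM. Osm was at 4.48 CPM in heme-albumin 12.5 µM replicate 8, Clcf1 at 31.9 CPM in control replicate 3 at 24 h and Osmr at 155 CPM in hemeHpx replicate 8, each the highest of its group.

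The 20 libraries tagged HbHpx 400 µM, 10 at each time, entered no comparison, and for 6 members their median lay above the highest control of the same time at 1 or both times. The share of all genes with such a median was not computed, so this count does not set the members apart from other genes. For Il11 the median was 10.1 CPM at 24 h against a highest control of 8.58 CPM, and 20.6 CPM at 48 h against 4.54 CPM. For Lif it was 29.9 CPM at 24 h against 15.5 CPM and for Clcf1 58.2 CPM against 32.2 CPM. At 48 h it was 1.42 CPM for Il6 against 1.15 CPM, 6.69 CPM for Osm against 5.19 CPM and 116 CPM for Osmr against 103 CPM.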

How the results depend on the processing

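For the 27 values of members that passed the test, all 217 values under alternative settings kept their direction, 23 were no longer under the threshold, and 17 of the 27 values stayed under it in every alternative run. In the 9 comparisons at 200 µM the count of members past the test changed by more than 1.5 times in 9 alternatives and did not in 70. With DESeq2 or with the replicate block, hemeHpx against control went from 0 to 1 member (Osmr). Without the filter on low counts, hemeHpx against heme-albumin went from 3 to 1. With no batch and no prefix term, HbHp 200 µM went from 0 to 2 at 24 h and from 1 to 4 at 48 h, and HbHp against Hb at 200 µM and 48 h from 0 to 2. With the batch term only, HbHp 200 µM at 48 h went from 1 to 3. With the replicate block it went from 1 to 2, with Il6 gained, and HbHp against Hb at 200 µM and 48 h from 0 to 1, with Il11 gained. In the other 20 comparisons it changed by that much in 31 alternatives. With E2 libraries alone HbHp 400 µM went from 2 to 0 at 24 h and from 2 to 4 at 48 h, Hp at 48 h from 1 to 0, Hb 400 µM at 48 h from 0 to 1, HbHp against Hb at 400 µM from 1 to 0 at both times, and HbHp against Hp from 1 to 2 at 24 h and from 1 to 3 at 48 h. With each time fitted alone Hp at 48 h and HbHp against Hb at 400 µM at both times went from 1 to 0. With the batch term only HbHp 400 µM at 24 h went from 2 to 1, HbHp against Hb at 400 µM and 48 h from 1 to 2 and HbHp against Hp at 48 h from 1 to 0. With neither term these last 2 did the same and Hp at 48 h went from 1 to 3. HbHp against Hp at 48 h also went from 1 to 0 with the other scaling and with either other filter. HbHp against Hb at 400 µM and 24 h went from 1 to 0 with no filter and to 2 with the stricter filter or DESeq2. With the replicate block it went from 1 to 0, the same comparison at 48 h from 1 to 2 (Il6 gained) and the time difference of HbHp 200 µM from 0 to 1 (Il11 gained). The block also exchanged Clcf1 for Il11 in HbHp against Hp at 48 h. With DESeq2 the time difference went from 0 to 1 for HbHp at 200 µM and at 400 µM. For HbHp 400 µM the count went from 2 to 1 without replicate 1 at 24 h or replicate 2 at 48 h, and from 2 to 4 without control replicate 8 at 24 h. The cause was not tested. The replicate block used the code in the library name. Libraries of different groups with the same code had a mean correlation of their deviations from the group means of 0.175 over 169 pairs in batch 1, 98 of them above 0.1. In batches 2 and 3 it was 0.127 over 291 pairs, 156 of them above 0.1. Pairs with different codes averaged -0.020 in batch 1 and, within a prefix, -0.025 in batches 2 and 3. Libraries of a code thus deviated together in part, which the main fit, without a term for code, leaves out. With the block, genes past the test against control went from 2113 to 2702 for heme-albumin 200 µM and from 1276 to 3706 for hemeHpx. Leaving out single libraries left the counts for HbHp 200 µM at 0 at 24 h and 1 at 48 h, and for HbHp against Hb at 200 µM and 48 h at 0. Leaving out the E2 controls and HbHp 200 µM replicate 1 was chosen after seeing the data, and other groups of more than 5 libraries were not run with a library left out.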

Other observations

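The libraries tagged HbHpx 400 µM held values of their own, given here by prefix because their group could not be settled and on a scale computed with these libraries included. At 24 h Il11 was at 7.68 to 22.1 CPM in 7 E1 libraries, all above the 7 E1 controls, and at 8.10 to 12.6 CPM in 3 E2 libraries, 2 of them above the 3 E2 controls. At 48 h it was at 7.49 to 32.4 CPM in 7 E1 and 16.6 to 43.1 CPM in 3 E2 libraries, all above the controls of the same prefix. Clcf1 at 24 h was at 56.8 to 99.2 CPM in E1 and 32.9 to 44.03 CPM in E2 libraries, and Lif at 19.2 to 54.97 and 12.1 to 33.2 CPM. All 10 Clcf1 values and 9 of 10 Lif values at 24 h lay above the highest of the 10 controls. Osmr lay above the highest of the 9 controls in all 10 libraries at 48 h, at 107.4 to 137 CPM. Il6st at 24 h, 271 to 311 CPM, lay within the control range, and Lifr at 24 h, 39.6 to 66.3 CPM, overlapped it. The control with conflicting times held 2.36 CPM of Il11, 0.788 CPM of Il6 and 4.88 CPM of Lif.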
